A study of Mus musculus with 17 samples.

Results

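The genes described here are 41 genes of the cell division cycle in innate lymphoid cells (ILCs) of mouse skin, 14 of S phase and 27 of mitosis. They were taken as a fixed list of gene symbols, and all 41 were among the 54446 gene IDs of the bulk count tables, of which 54409 had a symbol, and in each of the 3 single-cell tables. Per the labels, live cells negative for lineage markers and the γδ T cell receptor and positive for CD90 were sorted from skin of C57BL/6 mice, giving 14 bulk RNA-seq libraries in 6 groups and 3 single-cell libraries. In RORγt-fm mice a fate-map (fm) reporter marks cells, and sorting gave a reporter-positive and a reporter-negative population. RORgt-fm_pos_Gata3flox (n = 3) and RORgt-fm_neg_Gata3flox (n = 3) came from RORγt-fmΔGata3 mice, in which Gata3 was targeted, and RORgt-fm_pos (n = 2) and RORgt-fm_neg (n = 2) came from RORγt-fm mice, called intact below. Gata3KO (n = 2) came from Gata3fl/flCreERT2 mice and WT (n = 2) from wild-type mice, and both were given 3 intraperitoneal injections of 5 mg tamoxifen in corn oil, every other day. The single-cell libraries were sc-Dorsal_Skin-ILC_Day10, sc-Dorsal_Skin-ILC_Day0 and sc-Skin-ILC, with days counted from depilation, a treatment that removes hair and starts hair regrowth. The cells that express Cre in the fate-map mice, the age and number of the mice and any pooling are not given in the sources used here. The libraries of a group are not stated to come from separate mice, so the p-values below cover the spread among these samples alone, which may be technical.

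A cell that divides copies its DNA in S phase and then separates the copies in mitosis. Genes needed for copying are switched on late in G1 by E2F factors. Genes for mitosis are switched on later, in G2, by the MuvB complex with B-MYB and FOXM1. That complex acts on a promoter element called CHR, and these promoters often hold CCAAT boxes bound by NF-Y. Messenger RNA of the mitosis genes is therefore scarce in resting cells, and tissue ILCs are known as mostly resting cells that renew themselves locally.

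Promoters of members are shown because the S phase and mitosis genes differ in these elements. RefSeq's promoter table (mouse build GRCm38.p6, 250 bases before to 50 bases after each start) held 32 of the 41 members, 11 of S phase and 21 of mitosis. The letters searched, on both strands, were TTTGAA for the CHR, CCAAT for the CCAAT box, and TTTCCCGC, TTTCGCGC, TTTGCCGC and TTTGGCGC for E2F. The sequences are the 150 bases just before the start, 5′ to 3′ on the gene's strand, with matches in capitals. Nusap1 (chr2:119618148-119618297, plus strand), Ccnb1 (chr13:100786487-100786636, minus strand) and Cenpe (chr3:135212413-135212562, plus strand) passed the test in a comparison below. Top2a (chr11:99024190-99024339, minus strand) and Ube2c (chr2:164769779-164769928, plus strand) had the lowest p-values of the members after inducible deletion. Cdk1 (chr10:69352913-69353062, minus strand) held all 3 kinds of match, and Mcm5 (chr8:75109359-75109508, plus strand) represents the S phase genes.
Nusap1: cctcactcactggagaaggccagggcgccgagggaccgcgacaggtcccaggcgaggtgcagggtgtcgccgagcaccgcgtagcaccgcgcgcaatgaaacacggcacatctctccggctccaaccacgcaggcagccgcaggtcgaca
Ccnb1: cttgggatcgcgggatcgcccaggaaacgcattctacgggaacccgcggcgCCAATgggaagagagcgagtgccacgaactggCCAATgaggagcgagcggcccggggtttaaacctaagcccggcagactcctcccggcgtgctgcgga
Cenpe: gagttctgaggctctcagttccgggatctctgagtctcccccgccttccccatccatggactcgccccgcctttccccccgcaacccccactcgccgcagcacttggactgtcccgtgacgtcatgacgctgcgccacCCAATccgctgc
Top2a: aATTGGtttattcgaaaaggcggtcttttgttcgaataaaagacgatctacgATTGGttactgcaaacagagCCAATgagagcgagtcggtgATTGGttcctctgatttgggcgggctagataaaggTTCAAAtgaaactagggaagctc
Ube2c: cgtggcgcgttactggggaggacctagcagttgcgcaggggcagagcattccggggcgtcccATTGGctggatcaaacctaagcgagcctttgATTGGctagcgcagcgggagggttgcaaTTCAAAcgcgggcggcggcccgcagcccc
Cdk1: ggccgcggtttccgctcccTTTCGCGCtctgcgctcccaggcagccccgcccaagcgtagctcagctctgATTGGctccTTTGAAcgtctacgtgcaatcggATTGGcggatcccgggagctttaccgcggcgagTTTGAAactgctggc
Mcm5: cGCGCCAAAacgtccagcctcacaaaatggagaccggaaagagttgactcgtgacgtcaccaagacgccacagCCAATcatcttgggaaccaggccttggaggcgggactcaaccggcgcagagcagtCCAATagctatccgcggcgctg

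CHR letters were found in 16 of the 21 mitosis promoters (76.2%), in 1 of the 11 S phase promoters (9.09%, Mcm2) and in 5466 of all 27025 genes in the table (20.2%). Before the start they were found in 7 of the 21 mitosis promoters, the 1 S phase promoter and 4934 of all genes, so in 9 mitosis members the match lies only within the 50 bases after the start or across it. The 5 mitosis members without them in this window were Birc5, Bub1, Ccnb1, Cenpe and Nusap1. CCAAT letters were in 19 of 21 mitosis promoters (90.5%), 8 of 11 S phase promoters (72.7%) and 41.1% of all genes. E2F letters were in 4 of 11 S phase promoters (36.4%, Mcm3, Mcm5, Mcm6 and Mcm7), in 1 mitosis promoter (4.76%, Cdk1) and in 2.6% of all genes. A match is a description of these letters and does not show binding.

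Bulk libraries held 14450612 to 44098274 counts. The intact fate-map libraries had counts in 14525 to 15410 genes and the Gata3flox libraries in 17730 to 18974 genes, and this gap in detection lies along the Gata3flox comparisons. Among the 17456 genes tested in the fate-map libraries, 9.09% to 11.1% were at 0 in each Gata3flox library, against 24.5% and 26.3% in RORgt-fm_pos libraries and 19.7% and 20.1% in RORgt-fm_neg libraries. A smaller gap thus also lies along the reporter comparison in intact mice. Gata3 itself averaged 232 ± 76.9 CPM in RORgt-fm_pos_Gata3flox (SD, n = 3) and 233 ± 97.9 CPM in RORgt-fm_pos (SD, n = 2). In reporter-negative cells it averaged 379 ± 99.7 CPM in RORgt-fm_neg_Gata3flox (SD, n = 3) and 442 ± 87.0 CPM in RORgt-fm_neg (SD, n = 2), a gap smaller than the spread between libraries, so gene-level counts did not show a loss of Gata3 beyond that spread. It averaged 307 ± 10.6 CPM in Gata3KO and 481 ± 141 CPM in WT (SD, n = 2 each), and the part of the gene that is deleted was not measured apart. Levels are CPM, counts relative to library size after TMM scaling, which was done apart for the fate-map and the tamoxifen libraries. The leukocyte gene Ptprc was at 828 to 1347 CPM in all 14 libraries. Summed levels of 10 fibroblast genes were 68.4 and 190.3 CPM in RORgt-fm_pos libraries, against 8308 and 6175 CPM in RORgt-fm_neg libraries, which also held the highest sums of 12 keratinocyte genes (4615 and 2618 CPM, against 381 and 456 CPM in RORgt-fm_pos). Fibroblast sums were 144 to 353 CPM in RORgt-fm_pos_Gata3flox, 417 to 1083 CPM in RORgt-fm_neg_Gata3flox, 4309 and 3119 CPM in Gata3KO and 3688 and 1114 CPM in WT.

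Per length, Pcna, the sliding clamp of DNA polymerase (151 CPM per kb, mean of 14 libraries), and Stmn1, a protein that destabilises microtubules (129 CPM per kb), were the most abundant members. Cenpa, the histone variant of centromeres, followed at 23.9 CPM per kb, then Ccnb2, a mitotic cyclin, at 21.8, Mcm6 at 19.4 and Rrm2 at 10.98 CPM per kb. The least abundant were Bub1, a kinase of the spindle checkpoint (0.829 CPM per kb), Cenpf (0.658) and Kif20a (0.583). Plk1, a mitotic kinase, was at 0 in 7 of the 14 libraries and Kif20a in 4, while Ccnb1, Bub1 and Bub1b were each at 0 in 3. In bulk samples, fewer dividing cells and less RNA per dividing cell cannot be told apart. Exons of 13 members shared bases with another gene model, and for 6 of them over 10% of the exon bases: Gins2 (67.3%), Kif20a (33.2%), Ube2c (22.8%), Ccne2 (17.4%), Mcm7 (12.6%) and Ccna2 (12.5%). The strand setting of the counting is not given in the sources used here, so the levels of these 6 genes are uncertain.

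**Figure D1:**
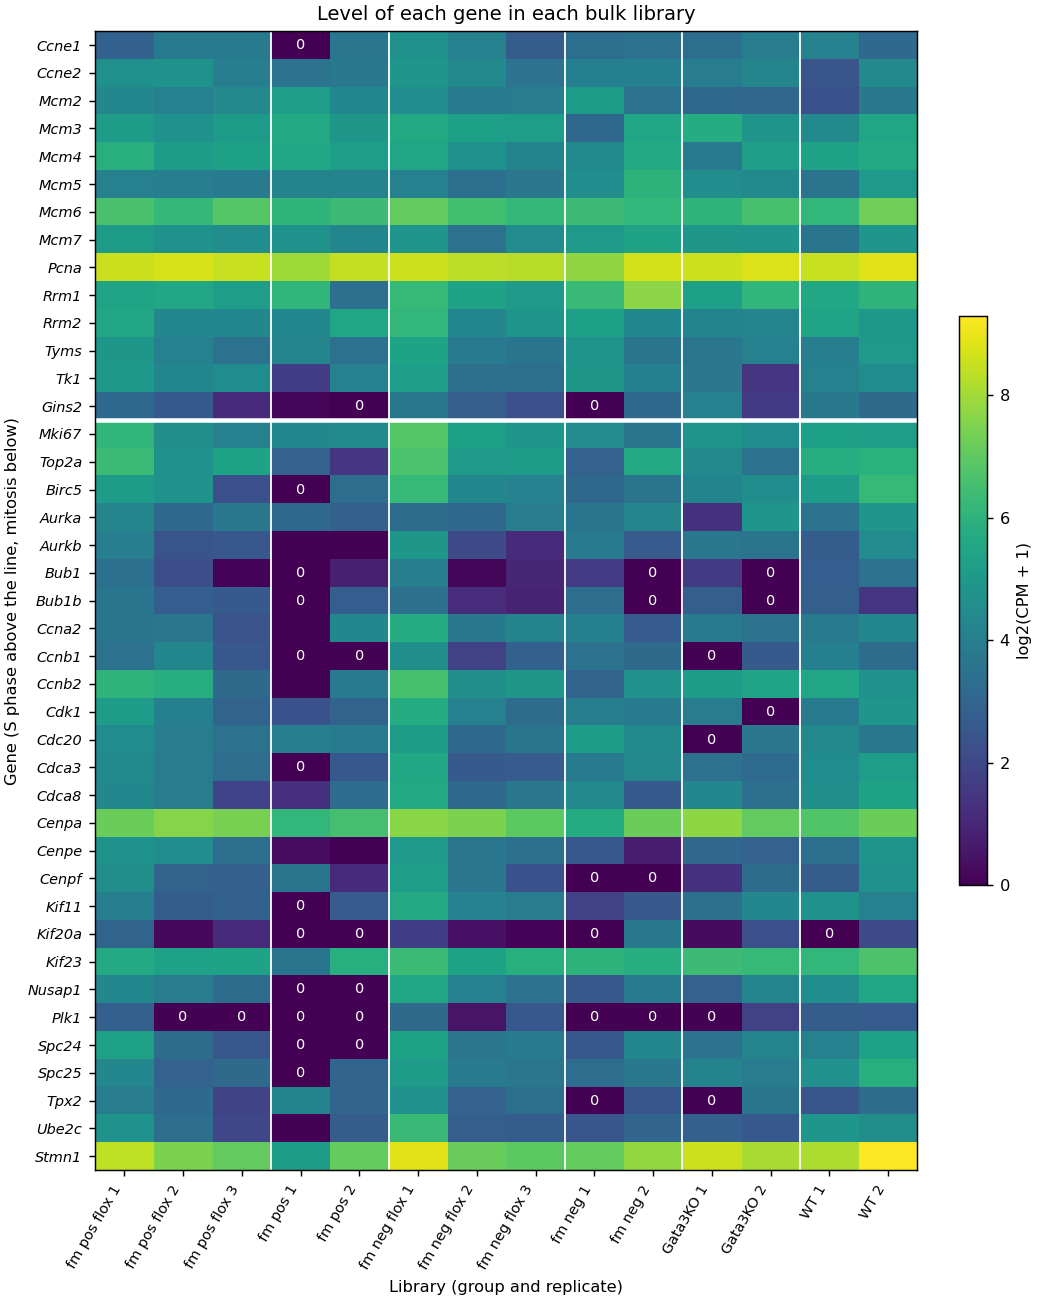
Level of each of the 41 genes (rows, S phase genes above the white line, mitosis genes below) in each of the 14 bulk libraries (columns, by group), as log2(CPM + 1), with exact zeros marked 0. The most mitosis genes at 0 are in the RORgt-fm_pos libraries, with 11 and 5 of 27, followed by Gata3KO with 4 and 3 and RORgt-fm_neg with 4 and 4.

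None of the 14 S phase genes was called in any of the 6 comparisons. Summed over the 14 genes, levels were 764 ± 43.6 CPM in RORgt-fm_pos_Gata3flox (SD, n = 3) and 628 ± 27.9 CPM in RORgt-fm_pos (SD, n = 2). The reporter-negative groups were at 728 ± 207 CPM in RORgt-fm_neg_Gata3flox (SD, n = 3) and 787 ± 260 CPM in RORgt-fm_neg (SD, n = 2), and the tamoxifen groups at 748 ± 72.1 CPM in Gata3KO and 822 ± 209 CPM in WT (SD, n = 2 each). Pcna made up much of each sum, at 369 to 425 CPM in RORgt-fm_pos_Gata3flox, 249 and 342 CPM in RORgt-fm_pos, 309.6 to 386 CPM in RORgt-fm_neg_Gata3flox and 214 and 409 CPM in RORgt-fm_neg. It was at 388 and 444 CPM in Gata3KO and 366 and 465 CPM in WT, so its groups overlapped there.

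The MCM genes encode the 6 subunits of the replicative helicase. Mcm6 stood at 98.4, 71.7 and 114 CPM in RORgt-fm_pos_Gata3flox, against 67.1 and 82.2 CPM in RORgt-fm_pos, and the groups overlapped. Mcm5 had 15.8, 9.51 and 11.8 CPM in RORgt-fm_neg_Gata3flox, against 22.8 and 63.1 CPM in RORgt-fm_neg, so all Gata3flox libraries lay below the intact ones. The RORgt-fm_neg libraries themselves differed by more than the gap between the groups. The log2 difference was -1.80 (SE 0.46) with an adjusted p of 0.0902 in edgeR's quasi-likelihood test, above the threshold of 0.05. In RORgt-fm_pos libraries Mcm5 was at 17.0 and 16.7 CPM, also below both RORgt-fm_neg libraries, with an unadjusted edgeR p of 0.0252 and an adjusted p of 0.191. Mcm2, Mcm3, Mcm4 and Mcm7 ranged over 4.06 to 35.7, 7.88 to 52.6, 13.6 to 55.8 and 10.1 to 40.1 CPM across the 14 libraries.

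Of the genes for nucleotide supply, Rrm1, the large subunit of ribonucleotide reductase, had 68.8 and 9.48 CPM in RORgt-fm_pos, against 76.6 and 206 CPM in RORgt-fm_neg, with large gaps between libraries of the same group (unadjusted edgeR p of 0.0419, adjusted p of 0.235). Rrm2, the small subunit, whose level follows S phase, had 17.0 and 17.9 CPM in Gata3KO, against 41.9 and 29.7 CPM in WT. The Rrm2 groups did not overlap, and the log2 difference of -1.03 (SE 0.40) had an unadjusted edgeR p of 0.0481 and an adjusted p of 0.719. Tyms, thymidylate synthase, ranged over 10.1 to 40.6 CPM and Tk1, thymidine kinase, over 1.65 to 36.1 CPM. Gins2, a subunit of the helicase complex, had 8.06, 5.15 and 1.16 CPM in RORgt-fm_pos_Gata3flox, against 0.13 and 0 CPM in RORgt-fm_pos, and its adjusted p was 0.223. Cyclin E genes, which start S phase, were low: Ccne1 reached at most 24.2 CPM and Ccne2 27.7 CPM, both in RORgt-fm_neg_Gata3flox replicate 1.

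**Figure D2:**
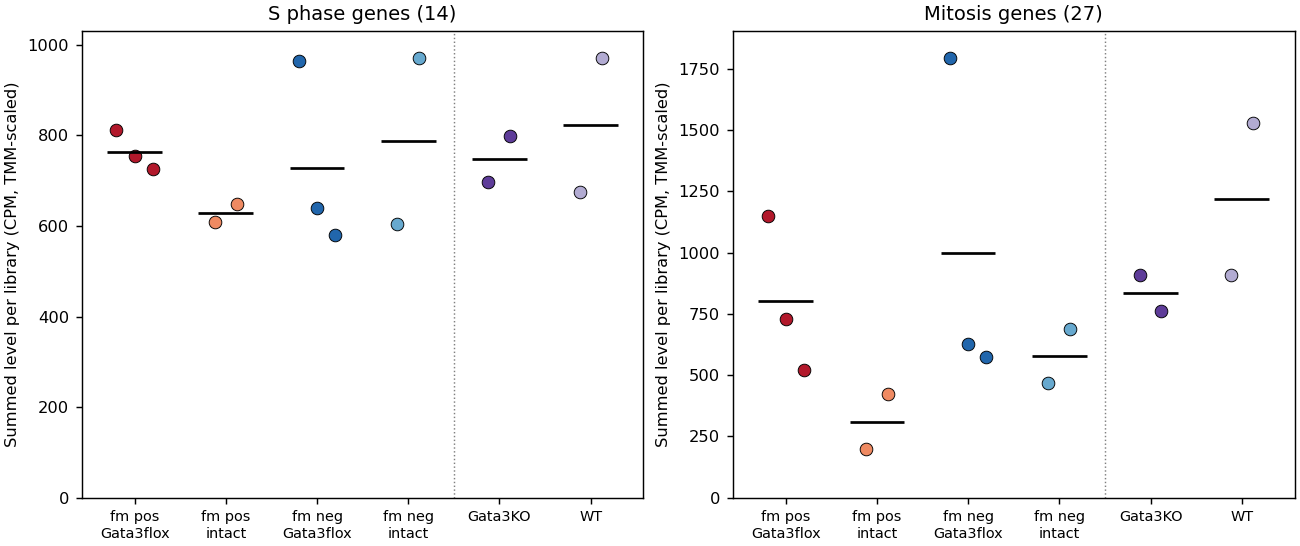
Summed CPM of the 14 S phase genes (left) and the 27 mitosis genes (right) by group, where each point is 1 library and the line is the group mean. S phase sums lay between 579.7 and 972 CPM in all 14 libraries, whereas mitosis sums ran over 197 to 1795 CPM, lowest in RORgt-fm_pos.

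Mitosis genes varied more. Their sum over 27 genes was 1150.1, 731 and 522 CPM in RORgt-fm_pos_Gata3flox, against 197 and 422 CPM in RORgt-fm_pos. It was 1795, 627 and 573 CPM in RORgt-fm_neg_Gata3flox, against 469 and 689.7 CPM in RORgt-fm_neg. In the tamoxifen libraries it was 907 and 761 CPM in Gata3KO, against 909.9 and 1528 CPM in WT. The reporter-positive Gata3flox libraries all lay above the reporter-positive intact ones, the Gata3KO libraries lay below the WT ones, the nearest pair almost level, and the reporter-negative groups overlapped. Replicate 1 of RORgt-fm_neg_Gata3flox was the highest of the 10 fate-map libraries for 23 of the 27 mitosis genes and 7 of the 14 S phase genes. Among the 4 tamoxifen libraries, WT replicate 2 was the highest for 16 mitosis genes and WT replicate 1 for 8.

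The first question was how reporter-positive cells differed between RORγt-fmΔGata3 and RORγt-fm mice. In RORgt-fm_pos_Gata3flox, 4 of the 27 mitosis genes rose relative to RORgt-fm_pos, and no mitosis gene fell. Of all genes tested, 1.52% were called, 1.11% higher and 0.418% lower. Nusap1, a microtubule-binding protein of the spindle (chr2:119618298-119651244, plus strand, mm10), had 19.1, 14.1 and 8.71 CPM in RORgt-fm_pos_Gata3flox, against 0 and 0 CPM in RORgt-fm_pos. Ccnb1, the cyclin that drives entry into mitosis (chr13:100778650-100786570, minus strand), had 10.3, 18.2 and 4.70 CPM, against 0 and 0 CPM. Spc24, a subunit of the kinetochore complex that holds microtubules (chr9:21755442-21760303, minus strand), had 39.2, 8.85 and 4.68 CPM in RORgt-fm_pos_Gata3flox, against 0 and 0 CPM in RORgt-fm_pos. Thus these 3 genes had reads in every Gata3flox library and in neither intact library.

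Against a floor of 3 counts over the RORgt-fm_pos libraries, Nusap1 was at least 303-fold higher (1217 against 0 counts, adjusted p = 0.0110, edgeR), Ccnb1 at least 237-fold higher (952 against 0 counts, adjusted p = 0.0261) and Spc24 at least 342-fold higher (1373 against 0 counts, adjusted p = 0.0304). Such bounds and the intervals below cover counting error only. Cenpe, a kinesin that moves chromosomes to the spindle equator (chr3:135212537-135273611, plus strand), had 25.6, 22.5 and 9.29 CPM in RORgt-fm_pos_Gata3flox, against 0.227 and 0.0251 CPM in RORgt-fm_pos. All Gata3flox libraries were above both intact ones, and the log2 difference was 7.24 (SE 1.39, adjusted p = 0.0381, edgeR).

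Members that did not pass the test mostly lay on the same side. Aurkb, the kinase of the chromosomal passenger complex, had 14.8, 4.39 and 4.80 CPM in RORgt-fm_pos_Gata3flox, against 0.0325 and 0.0251 CPM in RORgt-fm_pos, where it had 2 counts in all. Its ratio was 253 (95% counting interval 69.9 to 2100) with an adjusted p of 0.0681. Top2a, which untangles DNA before separation, had 79.3, 26.7 and 41.2 CPM, against 6.52 and 1.78 CPM, with a log2 difference of 3.57 (adjusted p = 0.114). For Cenpa, levels were 148, 194 and 168 CPM in RORgt-fm_pos_Gata3flox, against 70.1 and 92.0 CPM in RORgt-fm_pos, with a log2 difference of 1.07 (SE 0.39, adjusted p = 0.192). Mki67, the nuclear antigen of dividing cells, overlapped between the groups, at 68.3, 22.9 and 15.4 CPM against 19.5 and 20.1 CPM, and so did Stmn1, at 340.3, 177 and 134 CPM against 33.9 and 137 CPM.

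For 25 of the 27 mitosis genes the log2 difference was positive, with a median of 1.80 against 0.18 over all genes tested. All Gata3flox libraries lay above both intact ones for 12 members (21.2% of all genes tested) and below them for 0 (11.8% of all genes). At an unadjusted p under 0.05, 8 were higher (13.3% of all genes tested) and 0 lower (5.82%). The S phase median was 0.32, with 4 of 14 members entirely above and 1 below. In RORgt-fm_pos 16.9% of all genes tested were at 0 in both libraries, as were 5 mitosis members (Ccnb1, Kif20a, Nusap1, Plk1 and Spc24), while in RORgt-fm_pos_Gata3flox 2.43% of tested genes were at 0 in all libraries. Sums for other cell types also lay higher in RORgt-fm_pos_Gata3flox than in RORgt-fm_pos, with no overlap, for myeloid genes (204 to 485 CPM, against 174 and 81.4 CPM), endothelial genes (42.9 to 79.8 CPM, against 11.98 and 7.80 CPM) and keratinocyte genes (636 to 764 CPM, against 381 and 456 CPM). Fcer1g made up 393, 372 and 185 CPM of the myeloid sums in RORgt-fm_pos_Gata3flox, and 143 and 49.2 CPM in RORgt-fm_pos. Sfn made up 348, 461 and 473 CPM of the keratinocyte sums, against 210 and 261 CPM. Without Fcer1g and Sfn, the myeloid and the keratinocyte sums overlapped between the groups. The part of the detection gap and of these sums in the result was not tested. The count of 4 depended on single libraries: it was 9 without RORgt-fm_pos replicate 2, 2 without RORgt-fm_pos_Gata3flox replicate 1 and 1 without RORgt-fm_pos_Gata3flox replicate 2. With the libraries of these 2 groups alone the count was 0, and with DESeq2 it was 8. Over all genes, the fit of these 2 groups alone called 0 of 15443. DESeq2 called 1697 higher and 694 lower of 17093.

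The second question was how reporter-positive and reporter-negative cells of intact mice differed, and this comparison shares its RORgt-fm_pos libraries with the first. Here 3 of 27 mitosis genes were lower in RORgt-fm_pos than in RORgt-fm_neg, where 2.74% of all genes tested were called, 2.11% lower and 0.624% higher. Nusap1 had 0 and 0 CPM in RORgt-fm_pos, against 5.09 and 13.6 CPM in RORgt-fm_neg, and was at least 199-fold lower (0 against 309 counts, adjusted p = 0.00886, edgeR). Ccnb1 had 0 and 0 CPM, against 10.1 and 8.21 CPM, and was at least 221-fold lower (0 against 343 counts, adjusted p = 0.0200). Spc24 had 0 and 0 CPM, against 4.96 and 18.4 CPM, and was at least 242-fold lower (0 against 375 counts, adjusted p = 0.0250). All 3 were absent from the counts of both reporter-positive libraries and present in both reporter-negative ones.

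Aurkb had 0.0325 and 0.0251 CPM in RORgt-fm_pos, against 13.2 and 5.35 CPM in RORgt-fm_neg, a ratio of 0.0028 (95% counting interval 0.000338 to 0.0102, adjusted p = 0.0523). Cenpf, a large protein of the kinetochore and spindle matrix, ran the other way, with 11.2 and 1.204 CPM in RORgt-fm_pos, against 0 and 0 CPM in RORgt-fm_neg. It was at least 67.8-fold higher in RORgt-fm_pos, with an adjusted p of 0.0573. Cdc20, the activator of the anaphase-promoting complex, had 14.5 and 12.8 CPM in RORgt-fm_pos, against 33.7 and 20.7 CPM in RORgt-fm_neg, and Aurka, the spindle pole kinase, had 7.66 and 6.42 CPM, against 11.1 and 17.6 CPM. Neither of these passed the test, although their groups did not overlap.

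The median log2 difference of the mitosis genes was -1.07 (-1.18 with genes at 0 set to their bounds) against 0 over all genes tested, and that of the S phase genes was -0.41. RORgt-fm_pos libraries lay below both RORgt-fm_neg libraries for 12 mitosis genes and 4 S phase genes (18.9% of all genes tested) and above them for 2 mitosis genes and 0 S phase genes (16.2%). At an unadjusted p under 0.05, 7 mitosis genes were lower (12.3% of all genes tested) and 1 was higher (7.5%), and 3 S phase genes were lower (Mcm5, Gins2 and Rrm1). RORgt-fm_neg libraries held far more fibroblast and keratinocyte RNA than RORgt-fm_pos libraries, with none of the 10 fibroblast genes at 0 in RORgt-fm_neg and 6 and 4 of them at 0 in RORgt-fm_pos. Detection differed too: 16.9% of all genes tested were at 0 in both RORgt-fm_pos libraries, against 11.8% in both RORgt-fm_neg libraries. The part of this RNA and of the detection gap in the result was not tested. Against these 3 lower genes, 8 were called lower and 1 higher (Cenpf) without RORgt-fm_pos replicate 2, and 5 lower and 1 higher (Tpx2) without RORgt-fm_neg replicate 2. DESeq2 called 7 lower and 1 higher (Cenpf), and with the libraries of the 2 groups alone the count was 0. Over all genes, DESeq2 called 1832 lower and 781 higher of 16594. The fit of the 2 groups alone called 29 lower and 0 higher of 13638. The mitosis median was -0.45 without RORgt-fm_pos replicate 1 and -7.27 without RORgt-fm_pos replicate 2.

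**Figure D3:**
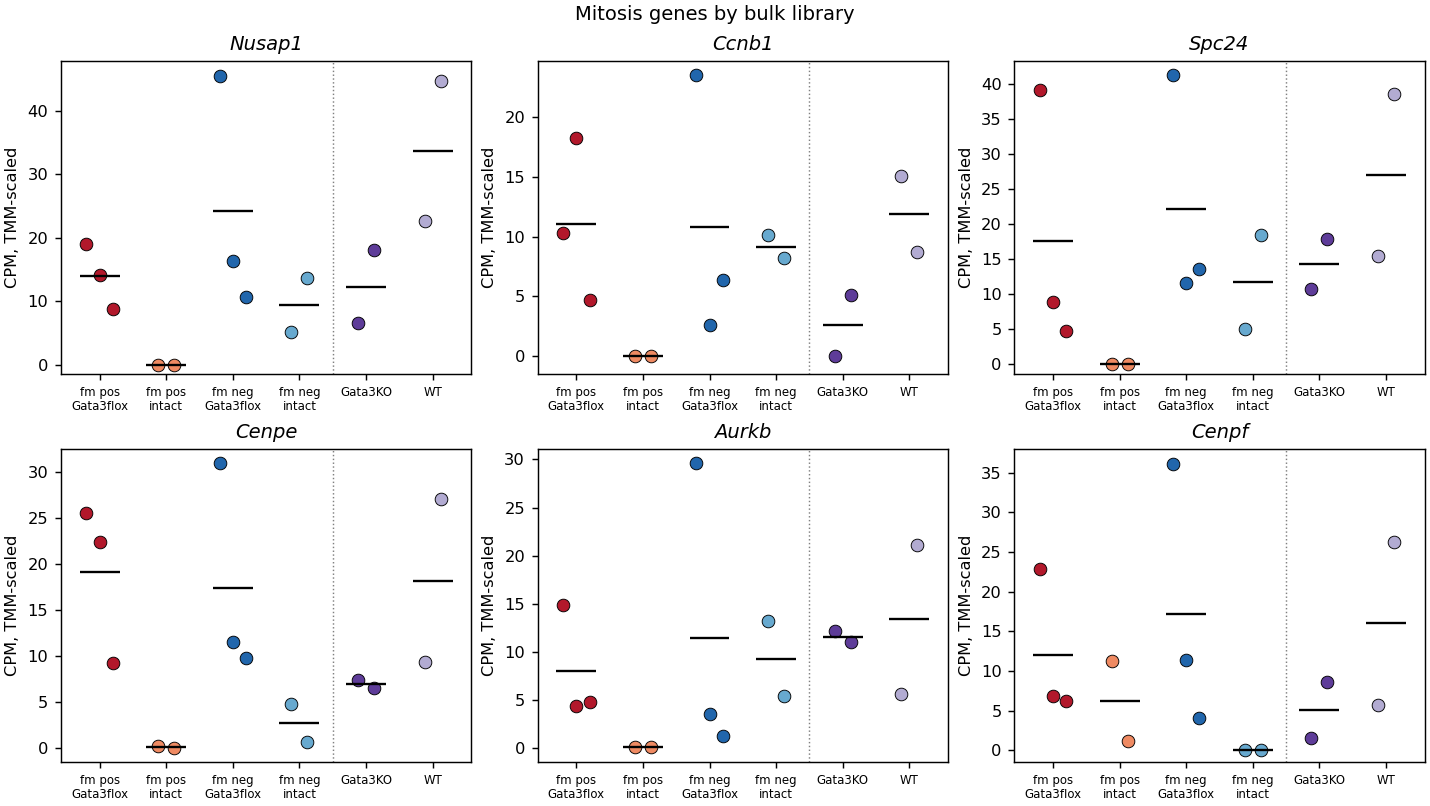
Level in CPM of 6 mitosis genes in each of the 14 bulk libraries, by group, 1 point per library. Nusap1, Ccnb1 and Spc24 are at 0 in both RORgt-fm_pos libraries, and Cenpf is at 0 in both RORgt-fm_neg libraries.

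In reporter-negative cells no mitosis gene passed the test between RORγt-fmΔGata3 and RORγt-fm mice (0 of 27, against 1.33% of all genes called in edgeR, 0.596% higher and 0.739% lower). At an unadjusted p under 0.05, 3 were higher (10.1% of all genes) and 0 lower (7.83%). DESeq2 called 2, where 1060 genes were called higher and 994 lower of 16105. Mki67 had 109.8, 36.9 and 28.6 CPM in RORgt-fm_neg_Gata3flox, against 21.4 and 11.2 CPM in RORgt-fm_neg, with a log2 difference of 1.84 (SE 0.76, adjusted p = 0.245, edgeR). Cenpe had 31.0, 11.5 and 9.84 CPM, against 4.78 and 0.695 CPM (log2 difference of 2.66, SE 1.077, adjusted p = 0.237). For both genes the lowest Gata3flox library stood above the highest intact one. Cenpf had 36.2, 11.4 and 4.02 CPM in RORgt-fm_neg_Gata3flox, against 0 and 0 CPM in RORgt-fm_neg, and was at least 216-fold higher with an adjusted p of 0.0523. Kif11, the motor that pushes spindle poles apart, had 48.2, 16.2 and 14.2 CPM, against 2.57 and 5.01 CPM (adjusted p = 0.361). The median log2 difference was 0.92 against 0.07 over all genes tested, with 7 members entirely above (21.9% of all genes) and 0 entirely below (17.6%). Without RORgt-fm_neg_Gata3flox replicate 1 the median was 0.0998, and without RORgt-fm_neg replicate 2 it was 1.45. The S phase median was 0.16, and -0.48 without RORgt-fm_neg_Gata3flox replicate 1.

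Within RORγt-fmΔGata3 mice, reporter-positive and reporter-negative cells did not differ in any mitosis gene by the test (0 of 27, against 0.361% of all genes called in edgeR, 0.126% higher and 0.235% lower). At an unadjusted p under 0.05 the count was also 0 for both gene sets (3.61% of all genes higher and 4.18% lower). DESeq2 too called 0, where 230 genes were called higher and 302 lower of 15121. Libraries of RORgt-fm_pos_Gata3flox lay entirely above those of RORgt-fm_neg_Gata3flox for 0 mitosis genes (9% of all genes) and entirely below for 1 (9.18%). Nusap1 had 19.1, 14.1 and 8.71 CPM in RORgt-fm_pos_Gata3flox, against 45.5, 16.3 and 10.6 CPM in RORgt-fm_neg_Gata3flox, and the groups overlapped. Ccnb1 had 10.3, 18.2 and 4.70 CPM, against 23.5, 2.57 and 6.36 CPM, and overlapped too. The mitosis median was -0.46 and changed sign with single libraries, to 0.59 without RORgt-fm_neg_Gata3flox replicate 1, and to 0.23 with the lane mark of the file names as a covariate. It was -1.24 without RORgt-fm_pos_Gata3flox replicate 1. The S phase median was 0.04.

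The difference between those reporter contrasts, in RORγt-fmΔGata3 mice minus RORγt-fm mice, was tested as an interaction over all 10 fate-map libraries, which the comparisons above share. It was called for 2 of 27 mitosis genes, Nusap1 (adjusted p = 0.0283, edgeR) and Ccnb1 (adjusted p = 0.0406), both with a positive difference, against 1.01% of all genes called, 0.825% positive and 0.183% negative. Spc24 had an adjusted p of 0.0564 and Cenpf, with a negative difference, one of 0.103. Both called genes rest on the zeros of RORgt-fm_pos, so their fitted log2 values are no measure of size. The mitosis median was 0.90 against 0.07 over all genes tested, and 6 members were positive at an unadjusted p under 0.05 (9.66% of all genes) with 1 negative (5.15%). No S phase gene was called, with a median of 0.29. The count of 2 was 0 without RORgt-fm_pos_Gata3flox replicate 1, 2 or 3, and without RORgt-fm_neg_Gata3flox replicate 2 or 3. It was 1 without RORgt-fm_pos replicate 1 or RORgt-fm_neg_Gata3flox replicate 1, while DESeq2 called 6 positive and 1 negative. Over all 15613 genes of that DESeq2 fit, 1078 were called positive and 409 negative. The mitosis median was 0.18 without RORgt-fm_pos replicate 1, 6.05 without RORgt-fm_pos replicate 2 and 1.79 without RORgt-fm_neg_Gata3flox replicate 1.

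After inducible deletion of Gata3, most mitosis genes had lower values, but none passed the test. In Gata3KO against WT, 0 of 27 mitosis genes and 0 of 14 S phase genes were called, as were 0% of the 13272 genes tested by edgeR, while 366 genes (2.76%) were higher and 549 (4.14%) lower at an unadjusted p under 0.05. DESeq2 called 82 genes higher and 154 lower, among them Top2a (adjusted p = 0.0228) and Ube2c (adjusted p = 0.042). Top2a had 19.995 and 10.4 CPM in Gata3KO, against 53.9 and 60.1 CPM in WT. Its log2 difference was -1.90 (SE 0.44, unadjusted p = 0.00733, adjusted p = 0.585, edgeR). Ube2c, the ubiquitin carrier that helps destroy cyclins at the end of mitosis, had 6.14 and 4.88 CPM in Gata3KO, against 28.6 and 23.0 CPM in WT. Its log2 difference was -2.23 (SE 0.53) with an unadjusted p of 0.00859 and an adjusted p of 0.585 in edgeR. For both genes the Gata3KO libraries lay under both WT libraries.

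Birc5, the passenger complex subunit also known as survivin, had 17.2 and 22.5 CPM in Gata3KO, against 34.1 and 74.3 CPM in WT. Cdca3, which triggers entry into mitosis, had 10.5 and 8.45 CPM, against 21.7 and 35.1 CPM. Spc25, the kinetochore partner of Spc24, had 16.9 and 14.02 CPM, against 25.3 and 57.4 CPM. These 3 had unadjusted edgeR p-values of 0.0308, 0.0264 and 0.0421 with adjusted p-values of 0.585 to 0.673. Nusap1 had 6.51 and 18.0 CPM in Gata3KO, against 22.7 and 44.7 CPM in WT, and Mki67 had 26.9 and 21.9 CPM, against 36.9 and 34.9 CPM, so neither overlapped. Cenpa, at 209.9 and 131 CPM in Gata3KO and 109 and 147 CPM in WT, Ccnb2, at 34.0 and 41.9 CPM against 43.7 and 26.1 CPM, and Stmn1, at 379 and 269.6 CPM against 284 and 627 CPM, did overlap. The log2 difference was negative for 24 of 27 mitosis genes, with a median of -1.17 against -0.02 over all genes tested. Gata3KO libraries lay below both WT libraries for 14 mitosis genes (19.3% of all genes tested) and above them for 0 (16.8%). At an unadjusted p under 0.05, 5 were lower and 0 higher. The median stayed between -1.44 and -0.70 when any of the 4 libraries was left out. The S phase median was -0.10, with 3 members entirely below. Sums for other cell types were also lower in Gata3KO than in WT, with no overlap, for keratinocyte genes (369.8 and 555 CPM, against 616 and 757 CPM), mast cell and basophil genes (91.0 and 88.9 CPM, against 113 and 181 CPM) and myeloid genes (57.0 and 35.5 CPM, against 60.9 and 62.3 CPM), while fibroblast sums overlapped. Kit made up most of the mast cell and basophil sums, at 91.0 and 85.1 CPM in Gata3KO and 110 and 176 CPM in WT. Fcer1g made up 17.6 and 8.45 CPM of the myeloid sums in Gata3KO, and 54.9 and 43.9 CPM in WT. Without Fcer1g, the myeloid sums were higher in both Gata3KO libraries than in both WT libraries. The part of these sums in the result was not tested.

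Other cell cycle genes were read from lists of 26 S phase genes, 42 mitosis genes, 26 regulators and 18 inhibitors or quiescence genes. In RORgt-fm_pos_Gata3flox against RORgt-fm_pos, 1 other S phase gene rose, the origin licensing factor Cdc6, which had 12.1, 7.56 and 3.82 CPM, against 0 and 0 CPM (at least 165-fold higher, adjusted p = 0.0328, edgeR). None of the 42 other mitosis genes passed, although 39 had a positive log2 difference, with a median of 1.97, and 16 an unadjusted p under 0.05 (13.3% of all genes). The nearest was Melk, a mitotic kinase, with 532 against 0 counts and an adjusted p of 0.0616. In RORgt-fm_pos against RORgt-fm_neg, Cdc6 fell (0 and 0 CPM against 0.856 and 5.77 CPM, at least 65.7-fold lower, adjusted p = 0.0318). So did Nuf2, a kinetochore partner of Spc24 and Spc25, with 0 and 0 CPM against 6.58 and 10.6 CPM (at least 192-fold lower, adjusted p = 0.0487). The median of the other mitosis genes was -1.078 there, and -1.32 with genes at 0 set to their bounds. In RORgt-fm_neg_Gata3flox against RORgt-fm_neg, Smc4, a condensin subunit, rose to 314, 221 and 215 CPM, against 109 and 98.0 CPM (log2 difference of 1.27, SE 0.24, adjusted p = 0.0432). No gene of the 4 lists passed in Gata3KO against WT or in the interaction. Of the 39 other mitosis genes tested in Gata3KO against WT, 29 had a negative difference, with a median of -0.67.

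Among regulators Myc, a transcription factor that drives growth and entry into the cycle, was called in 3 comparisons. It had 108 and 70.0 CPM in RORgt-fm_pos, against 504 and 548 CPM in RORgt-fm_neg, with a log2 difference of -2.57 (SE 0.25, adjusted p = 0.00175, edgeR). In RORγt-fmΔGata3 mice it had 84.2, 94.0 and 67.7 CPM in RORgt-fm_pos_Gata3flox, against 229, 211 and 268 CPM in RORgt-fm_neg_Gata3flox (log2 difference of -1.53, SE 0.20, adjusted p = 0.0169). Reporter-negative cells thus held more Myc RNA in both kinds of mice, and their level was lower in RORgt-fm_neg_Gata3flox than in RORgt-fm_neg (-1.16, SE 0.22, adjusted p = 0.0421). The interaction for Myc had an adjusted p of 0.184. Fibroblast sums were likewise higher in reporter-negative libraries of both kinds of mice, whereas keratinocyte sums were so in intact mice and overlapped in RORγt-fmΔGata3 mice (636 to 764 CPM in RORgt-fm_pos_Gata3flox and 511 to 646 CPM in RORgt-fm_neg_Gata3flox). The part of this RNA in the Myc result was not tested. E2f7, a repressor of E2F targets, had 0 and 0 CPM in RORgt-fm_pos, against 8.96 and 14.5 CPM in RORgt-fm_neg (at least 262-fold lower, adjusted p = 0.0232). Cdkn1a, the inhibitor p21, had 1010.0, 1001 and 1031 CPM in RORgt-fm_neg_Gata3flox, against 1692 and 1595 CPM in RORgt-fm_neg (log2 difference of -0.70, SE 0.13, adjusted p = 0.0372). It was higher in RORgt-fm_pos_Gata3flox, at 1601, 1658 and 1854 CPM, than in RORgt-fm_neg_Gata3flox (0.75, SE 0.11, adjusted p = 0.0313).

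Single-cell libraries held 454 cell barcodes at day 10 after depilation, 564 at day 0 and 4444 in the skin library. After removal of predicted doublets, of cells with over 10% mitochondrial counts and of cells with under 200 genes, 443, 553 and 4103 cells remained, and a typical cell (the median) had 1811, 1984 and 2358 counts. The doublet caller marked 11, 11 and 3 barcodes, and the last is too few for it to have worked in the skin library. The skin and day 0 libraries shared 4 cell barcodes, and the other pairs shared 0. With 1 library per day there is no test between days, and all intervals are 95% counting intervals.

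At day 10 the summed mitosis genes were at 675 CPM (582 counts), against 616 CPM (721 counts) at day 0, a ratio of 1.10 (0.981 to 1.22). The S phase genes were at 622 CPM (537 counts), against 618 CPM (724 counts), a ratio of 1.01 (0.899 to 1.13). Of the 22 members with at least 20 counts over both days, 1 was past a ratio of 2 and 0 were at or under 0.5, against 6.63% of 7803 such genes past these folds in either direction. That gene was Tk1, with 25 counts at day 10 and 13 at day 0 (ratio 2.61, 1.29 to 5.56). Of the members with fewer counts, Cenpe had 1 at day 10 and 14 at day 0 (ratio 0.0970, 0.00229 to 0.637). Aurka ran the other way, with 6 and 1 (ratio 8.15, 0.988 to 375). Stmn1 had 105 counts at day 10 and 95 at day 0 (ratio 1.501, 1.13 to 2.002), Top2a 84 and 97 (1.18, 0.867 to 1.59), Mki67 33 and 44 (1.02, 0.628 to 1.64) and Pcna 305 and 446 (0.928, 0.800 to 1.076). The other cell cycle sums were close as well, at a ratio of 1.13 (0.988 to 1.29) for other S phase genes, 1.01 (0.929 to 1.11) for other mitosis genes, 1.12 (1.05 to 1.203) for regulators and 1.15 (1.11 to 1.1996) for inhibitors. Keratinocyte genes had a ratio of 0.658 (0.518 to 0.830) and mast cell and basophil genes one of 1.5001 (1.27 to 1.77), and their part was not tested.

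In the skin library, 4 members were detected more broadly than the rest. Pcna had a count in 43.8% of day 10 cells, 49.5% of day 0 cells and 43.7% of skin cells. Cenpa had counts in 10.5%, Kif23, a kinesin of the midzone of dividing cells, in 10.7% and Stmn1 in 9.24% of skin cells, whereas Mki67 had counts in 2.49% and Top2a in 5.34%. In the dorsal libraries Top2a, in 12.4% of day 10 and 11.9% of day 0 cells, was as broad as Kif23, in 12.2% and 12.3%. After thinning to 1000 counts per cell, counts of another of the 24 mitosis genes besides Cenpa, Kif23 and Stmn1 were read. In skin 12.2% of cells with Cenpa had one (6.74% of those without it), and 11.2% of those with Kif23 (6.82%). The share was 35.4% of 65 cells with Mki67 (5.48%) and 61.5% of 13 with Ube2c (6.73%). Many of the 24 were in few cells, and their shares ran from 0 of 3 for Ccnb1 to 3 of 3 for Bub1, with 1 of 9 for Aurka. Stmn1, at 19.3%, did not stand apart from Top2a, at 19.6%, by this measure. In day 10 cells the share was 2 of 10 for Mki67 and 18.2% for cells without it, and at day 0 it was 53.3% of 15 and 17.1%. Of skin cells with Pcna, 7.30% had a count of these mitosis genes, and of skin cells without it 6.96%. Counts below were also taken without Pcna, Cenpa, Kif23 and Stmn1, a choice made after seeing the data, from the skin library, and not the only one these values allow. No cell type that lacks these genes was defined here, so a background share from free RNA was not measured.

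At least 3 counts of the 27 mitosis genes were present in 17.8% of day 10 cells (14.4% to 21.7%), 18.1% of day 0 cells (15.0% to 21.5%) and 6.95% of skin cells (6.19% to 7.77%). Without Cenpa, Kif23 and Stmn1 these shares were 5.19% (23 cells), 5.97% (33 cells) and 1.95% (80 cells). Thinned to 1000 counts per cell, with all 27 genes, they were 5.83%, 5.78% and 1.70%. At least 3 counts of the S phase genes without Pcna were present in 3.61%, 3.80% and 2.66% of cells. The dorsal and skin libraries list different numbers of genes (36125 and 34943), and with 1 library each, skin site and library cannot be told apart.

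**Figure D4:**
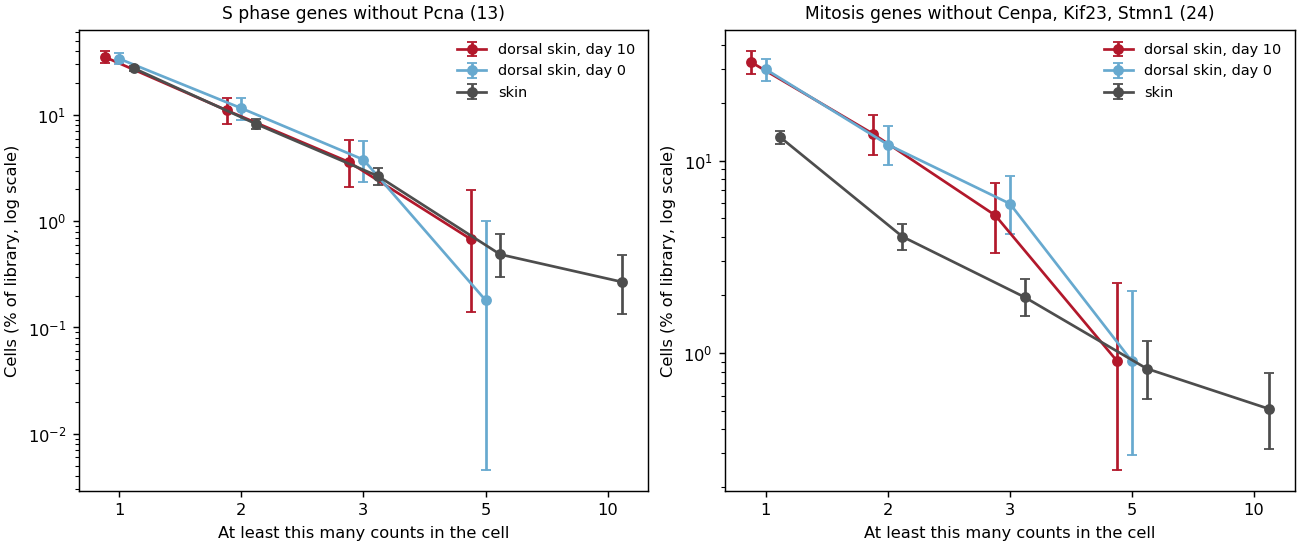
Share of cells (log axis) with at least 1, 2, 3, 5 or 10 counts of the 13 S phase genes without Pcna (left) and of the 24 mitosis genes without Cenpa, Kif23 and Stmn1 (right), with exact 95% intervals, in the day 10, day 0 and skin libraries. At 10 or more counts of mitosis genes the skin library has 21 cells and the dorsal libraries have 0.

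Skin cells with many mitosis counts were few and rich. The highest count of the 24 mitosis genes in a single cell was 63 in skin, against 5 at day 10 and 9 at day 0, and 21 skin cells (0.512%, 0.317% to 0.781%) had 10 or more, against 0 of 443 cells at day 10 and 0 of 553 at day 0, which allow shares of up to 0.677% and 0.542%. These 21 cells held 0.879% of all counts of the library and, by their choice, 35.7% of the counts of the 24 genes. By gene, they held 82.1% of 28 counts of Ccnb2, 77.8% of 18 of Bub1, 66.7% of 24 of Ccna2, 58.3% of 36 of Ube2c, 43.9% of 237 of Mki67 and 23.1% of 359 of Top2a, but 0 of 8 of Ccnb1 and 0 of 9 of Plk1. Low shares were also held of Aurka (7.41% of 27 counts), Bub1b (16.7% of 12) and Cdc20 (17.9% of 39). Of the mitosis genes not used to choose them, they held 17.8% of 636 counts of Stmn1, 4.36% of 642 of Cenpa and 2.16% of 603 of Kif23. Among S phase genes the cells held 16.7% of 96 counts of Rrm2, 10.6% of 255 of Rrm1, 10.1% of 188 of Mcm7, 3.41% of 352 of Mcm6 and 1.96% of 3015 of Pcna. Their median was 3789 counts per cell, against 2355 in the rest.

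**Figure D5:**
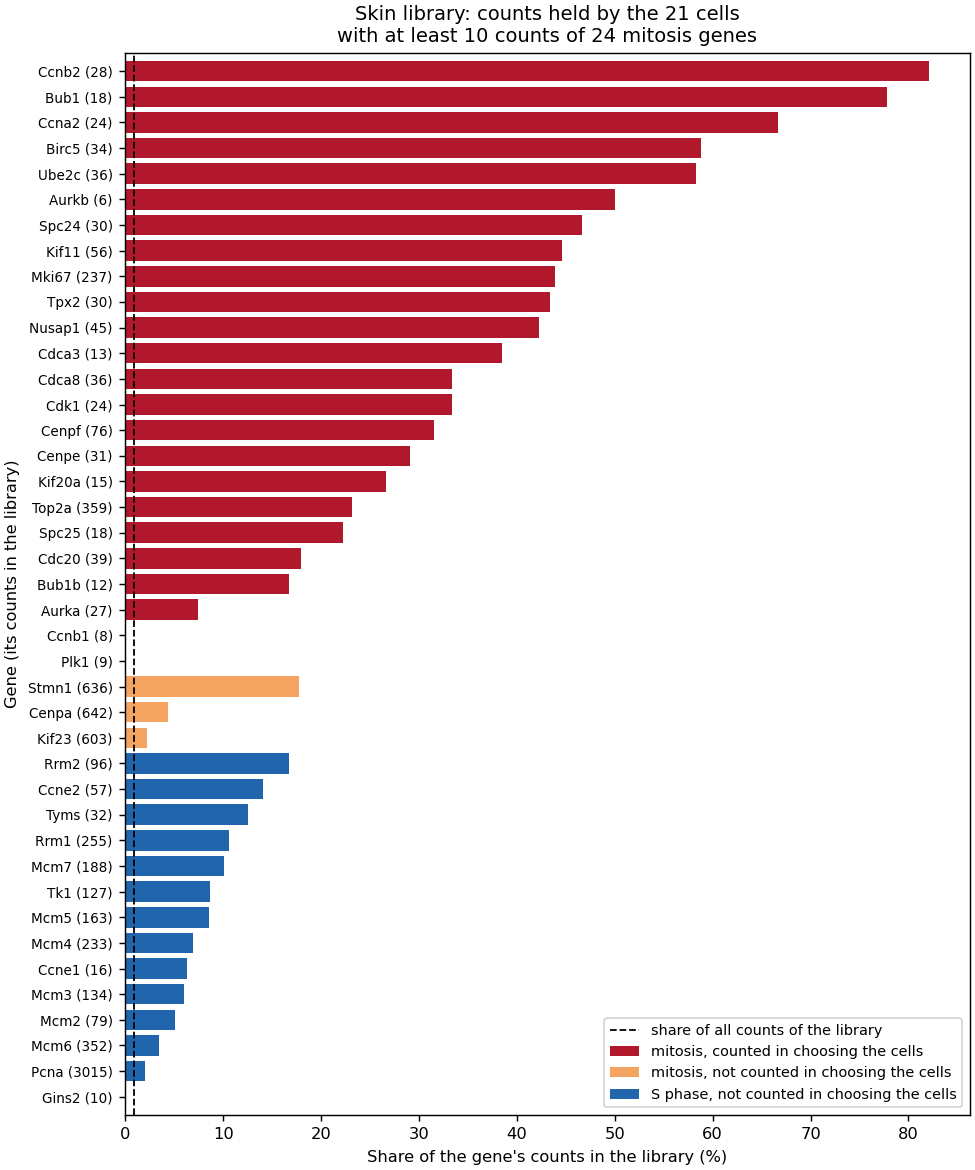
Share of each gene's counts in the skin library that was held by the 21 cells with at least 10 counts of 24 mitosis genes, in percent, with a dashed line at 0.879%, the share of all counts in these cells. The 24 genes chose the cells, so their bars are a description, while Stmn1, Cenpa, Kif23 and the S phase genes were not used in the choice.

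S phase counts were also read in the cells with mitosis counts. Of cells with at least 3 counts of the 24 mitosis genes, 17.4% (4 of 23, 4.95% to 38.8%) at day 10, 21.2% (7 of 33, 8.98% to 38.9%) at day 0 and 26.3% (21 of 80, 17.0% to 37.3%) in skin also had at least 3 counts of the 13 S phase genes without Pcna. In the other cells these shares were 2.86%, 2.69% and 2.19%. Cells with mitosis counts were deeper, with medians of 2193, 2972 and 3162 counts, against 1798, 1945.5 and 2344 in the rest, and the part of depth in these shares was not tested. In skin the 80 cells carried ILC genes. Thy1, which encodes CD90, had a count in 88.8% of them and in 70.2% of the rest. Ptprc had one in 81.3% and 75.2%, Il7r in 60 of 80 and 72.3%, and Gata3 in 76.3% and 79.5%. By level, Thy1 (1270 against 802 CPM) and Ptprc (990 against 899 CPM) were higher in the 80 cells. Gata3 (1196 against 1712 CPM), Il7r (773 against 1047 CPM) and the sum of 10 ILC genes (11215 against 12200 CPM) were lower. Cd3e, of the T cell receptor complex, had a count in 8.75% and 4.75%, and Cd3d in 8.75% and 2.46%. Cd3g ran the other way, with a count in 7.5% of the 80 cells and 9.97% of the rest. A gene of the T cell list (13 genes) had a count in 88.8% and 84.8%. The part of T cells in the skin counts was not tested. Lists for other cell types were also present, at shares near those in the rest: a keratinocyte gene had a count in 26.3% and 22.5%, a myeloid gene in 13.8% and 12.5%, a mast cell or basophil gene in 40 of 80 and 46.2%, and a fibroblast gene in 1.25% and 1.27%. In the dorsal libraries a myeloid gene had a count in 65.2% of the 23 cells at day 10 (56.4% of the rest) and in 60.6% of the 33 cells at day 0 (52.9% of the rest). The myeloid gene Lyz2 had counts in 39.1% of 23 at day 10 (17.1% of the rest) and in 27.3% of 33 at day 0 (15.8% of the rest). Thy1 had counts in 87.0% of the 23 and 90.9% of the 33. The part of myeloid RNA in the dorsal counts was not tested. In skin, the lists not used in the choice were also higher in the 80 cells, at 2621 CPM against 851 CPM for other mitosis genes and 1108 CPM against 346 CPM for other S phase genes. In the dorsal libraries these lists were near level, with other mitosis genes at 1152 CPM against 1037 CPM at day 10 and 1072 CPM against 1025 CPM at day 0. Other S phase genes were at 437 CPM against 478 CPM at day 10 and 435 CPM against 420 CPM at day 0. By these lists, dorsal cells with at least 3 counts of the 24 genes were thus not set apart as the skin cells were. The 13 S phase genes without Pcna, also outside the 24, were higher in such dorsal cells. They were at 457 CPM against 257 CPM at day 10 and 425 CPM against 221 CPM at day 0. In skin they were at 813 CPM against 153 CPM. The difference between libraries was not tested.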

How the data were processed

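Gene expression was measured by bulk RNA-seq in 14 libraries and by single-cell RNA-seq in 3. Values deposited by the authors were raw counts per gene, and raw counts per gene and cell, not normalised. Per the submitters' processing notes, HISAT2 2.1.0, featureCounts, Subread and the mm10 build were used. Strand setting, single-cell platform and cell calling are not given in the sources used here.

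The 41 members, the other gene lists, the tests and the alternatives were chosen with earlier results of these data known. All members were open to being named. From the other lists, up to 3 genes with the smallest p were named where a gene of the list was called, or as an example. Genes were tested with edgeR 4.0.16 (R 4.3.3) quasi-likelihood fits after filterByExpr and TMM scaling, in one fit of the 10 fate-map libraries (17456 genes) and one of the 4 tamoxifen libraries (13272 genes), and all 41 members passed the filter in both. A gene was called at a Benjamini-Hochberg adjusted p under 0.05 over all genes tested, and the test was checked on simulated counts. That check gave all genes the same spread and simulated no loss of detection in a group. It therefore does not bear on calls of genes at 0 in a whole group. Where a group had 0 counts, folds are bounds against 3 counts over the group, and with 1 to 3 counts ratios carry exact intervals. Depth, 14450612 to 44098274 counts, sets these bounds. Single cells were filtered in Python 3.11.15 with scanpy 1.11.5, counts were summed per library, and shares carry exact Clopper-Pearson 95% intervals. For 0 of n cells, 3 counts over n is given as the limit. The dorsal libraries list no mitochondrial genes, so that filter acted on the skin library alone. Alternatives were DESeq2 1.42.0, other scaling and filters, fits of 2 groups alone, lane marks or replicate numbers in the fit, each library left out, and other count thresholds and thinning in single cells. The labels do not say whether replicate numbers pair the samples, and the main fits did not use them as pairs.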

Additional observations from a re-analysis of the deposited data

Results flagged for a closer look

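Nusap1 and Ccnb1 stand here because their reporter difference differed between RORγt-fmΔGata3 and RORγt-fm mice by the interaction in edgeR (adjusted p = 0.0283 for Nusap1 and 0.0406 for Ccnb1). Nusap1 had 19.1, 14.1 and 8.71 CPM in RORgt-fm_pos_Gata3flox and 45.5, 16.3 and 10.6 CPM in RORgt-fm_neg_Gata3flox, against 0 and 0 CPM in RORgt-fm_pos and 5.09 and 13.6 CPM in RORgt-fm_neg. Ccnb1 had 10.3, 18.2 and 4.70 CPM and 23.5, 2.57 and 6.36 CPM in the Gata3flox groups, in the same order, against 0 and 0 CPM in RORgt-fm_pos and 10.1 and 8.21 CPM in RORgt-fm_neg. The call was kept in 11 of 17 settings for Nusap1 and in 6 of 17 for Ccnb1.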

How the results depend on the processing

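No called member changed direction under any alternative run. Counts of called members, both directions together, moved most. DESeq2 called 8 mitosis and 2 S phase genes in RORgt-fm_pos against RORgt-fm_neg, 8 and 1 in RORgt-fm_pos_Gata3flox against RORgt-fm_pos, 2 and 1 in RORgt-fm_neg_Gata3flox against RORgt-fm_neg, 7 mitosis genes in the interaction and 2 in Gata3KO against WT. In the first and in the interaction, 1 gene of the DESeq2 count ran opposite to the rest. Without a filter on low counts the mitosis counts were 8, 9, 2 and 8 in the first 4 of these, with 1 S phase gene in the first and 1 in the third. With a mean CPM of at least 5 they were 5 in the first and 1 in the third. With the libraries of the 2 groups alone, both the first and the second had 0. With the lane mark as covariate the interaction had 1. Leaving out 1 library at a time gave 2 to 9 mitosis genes in the first, 1 to 9 in the second and 0 to 3 in the interaction, and 0 to 1 S phase genes in each of the 4. Calls over all genes moved as well. In the first they were 109 higher and 369 lower in the main fit, and 781 and 1832 with DESeq2. Without a filter on low counts they were 336 and 988. In the second they were 193 higher and 73 lower in the main fit, and 1697 and 694 with DESeq2. Without that filter they were 678 and 296. The cause of these shifts was not tested, except that leaving libraries out leaves fewer samples.

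The replicate block changed the interaction count to 0 and the count in RORgt-fm_neg_Gata3flox against RORgt-fm_neg to 1. It gave 2 in place of 3 in RORgt-fm_pos against RORgt-fm_neg and 3 in place of 4 in RORgt-fm_pos_Gata3flox against RORgt-fm_pos, with Ccnb1 lost in both. Deviations of same-numbered samples correlated at -0.00443 in intact, 0.0169 to 0.0975 in Gata3flox and 0.0107 in tamoxifen libraries, and not every sample correlated best with its own number. With 2 libraries per group, values for same and different numbers only mirror each other in sign, so they cannot decide pairing. The numbers were not taken as pairs, and whether they pair the samples was not settled.

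The day ratio of the S phase sum was 1.13 without Pcna. Shares of cells with mitosis counts at day 10, day 0 and in skin were 33.6%, 32.4% and 14.3% at 2 counts, 4.97%, 5.06% and 2.07% at 5 counts, 5.83%, 5.78% and 1.70% after thinning, and 5.19%, 5.97% and 1.95% without Cenpa, Kif23 and Stmn1, the last chosen after seeing the data. Depth sets the bounds for members at 0. The RORgt-fm_pos libraries, with 11 and 5 mitosis genes at 0, held 29459270 and 40639618 counts, in 14525 and 14771 genes. RORgt-fm_neg_Gata3flox libraries, with 0 members at 0, held 16844805 to 21867082 counts, in 18127 to 18555 genes. The part of depth and of this gap in detection in the zeros was not tested. Having 2 or 3 libraries per group limits every test.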
